A study of Mus musculus with 12 samples.

Results

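Contactins (Cntn1 to Cntn6), the neural cell adhesion molecules Ncam1 and Ncam2, and Chl1, the close homologue of L1, were examined in the main olfactory epithelium (MOE) of mice after unilateral naris occlusion (UNO). These 9 genes, of 19938 genes with a single symbol on the array, were chosen as immunoglobulin-type adhesion molecules linked to the bundling of axons and their sorting into glomeruli. Where a gene had several probe sets, the one with the highest mean would have been used, but each of the 9 had 1 probe set of its own and all 9 lay above the filter on low signal.

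All of the mice had the right nostril sealed by electrocautery at 2 weeks of age, and each side of the MOE was collected 3 weeks later. The titles of the samples put this at 5 weeks of age, although an age tag reads 6 months. The 4 groups were the open side and the closed side of wild type (WT) mice and of H2be-KO mice, with 3 samples in each, every sample holding tissue of 2 mice of opposite sex by the series description. Figure legends of the study give 4 mice, and whether the open and closed samples of one number came from the same mice was not stated. H2be encodes a histone H2B variant of olfactory neurons, and the KO allele carries GAP43-mCherry, a membrane-bound red fluorescent protein, in place of its coding sequence. No unoperated mice are among these samples, so the open side of operated mice served as the reference. The cautery was applied to the right nostril alone. Its local effects and differences between right and left therefore cannot be told apart from those of occlusion. Each sample was 1 Affymetrix Mouse Gene 1.0 ST array, with array medians between 7.21 and 7.30 on the log2 scale. H2be itself, listed as H2bc21, lay at 11.31 to 11.33 on the KO open side against 11.55 to 11.62 on the WT open side. The KO closed side gave 11.41 to 11.46 against 11.68 to 11.75 on the WT closed side. Neither difference passed the test across all probe sets (-0.26, adjusted p = 0.641, and -0.27, adjusted p = 0.999, limma), and where its probes lie relative to the replaced sequence is not given in the sources used here.

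Contactins are anchored to the outer face of the cell membrane by a lipid tail and carry immunoglobulin and fibronectin type III domains. They have no part inside the cell and act through partners, among them the contactin-associated proteins and amyloid precursor family proteins. NCAMs bind their like on neighbouring axons, and polysialic acid on NCAM1 weakens that grip. Each olfactory sensory neuron (OSN) sends 1 axon to the bulb, where axons of neurons with the same odorant receptor come together in glomeruli. Such molecules are known to help axons bundle, and contactin-4 (BIG-2) and NCAM2 (OCAM) differ between groups of OSNs in the mouse.

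Of the 9 genes, 4 lie together on chromosome 6. In the RefSeq annotation of GRCm38.p6, Cntn3, Chl1, Cntn6 and Cntn4 follow each other with 0 protein-coding genes between neighbours. The remaining genes are on chromosomes 1 (Cntn2), 9 (Cntn5 and Ncam1), 15 (Cntn1) and 16 (Ncam2), and 437 protein-coding genes separate the pair on chromosome 9. RefSeq windows of 250 bases before a start site were held for 8 of the genes, 12 windows in all, and Ncam1 had no entry. These were searched on both strands for TCCC, any 2 bases and GGGA, a palindrome bound by the EBF factors of olfactory neurons, TAATTA, a core bound by many homeodomain proteins, and TGACG, one arm of the cAMP response element. None of these 3 motifs contains another. The 30 bases around each match are printed 5′ to 3′ on the strand of the gene, with the match in capitals, since they show what the members share and do not share before their starts.
Chl1, chr6:103510775-103510804, plus strand: ctgcctcttgTCCCAAGGGAgtgtgtgtaa
Cntn4, chr6:106118820-106118849, plus strand: tgattcatacgcTAATTAcgtcgatccttt
Cntn6, chr6:104493014-104493043, plus strand: cctcaagaactaattgtctaggttcCGTCA
Cntn1, chr15:92128019-92128048, plus strand: aggggtatacagCGTCAacagcatttactg
The EBF palindrome was found in the window of Chl1 alone, where it began 91 bases before the start, and 0.779% of all 32851 windows held it. TAATTA was found before 1 of the starts of Cntn4 and in 4.84% of all windows. TGACG, read on the opposite strand as CGTCA, was found before Cntn6 and Cntn1 and in 17.8% of all windows. No motif was shared by more than 2 members. A match of letters does not show a bound site.

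None of the 9 genes passed the test in any of the 6 comparisons made. A gene is called here where its adjusted p was under 0.05 (limma, two-sided, Benjamini-Hochberg over 32615 probe sets), and a change is the difference of group means on the log2 scale, closed minus open or KO minus WT. On the closed side of the WT, 0 of 9 were called against 0.855% of all probe sets. In the KO, 0 of 9 were called against 1.05%, and for the mean of both genotypes 0 of 9 against 2.9%. Between genotypes, 0 of 9 were called on the open side (0.0215% of all probe sets), on the closed side (0.0245%) and in the difference between genotypes in the effect of UNO (0%). With so few calls over all probe sets, 0 of 9 does not set these genes apart.

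At an unadjusted p under 0.05, 3 of 9 members passed in the WT (Cntn1, Ncam1 and Cntn6), against 9.34% of all probe sets, and 0 in the KO, against 10.5%. On the mean of both genotypes 4 did (Cntn1, Cntn2, Cntn6 and Ncam1), against 13.2%. Between genotypes, 1 member (Cntn1) passed on the open side against 6.67%, 0 on the closed side against 4.26% and 0 in the difference of effects against 4.01%. Within the WT, groups of 3 arrays did not overlap between sides for 3 members, the same that passed at the unadjusted p, while 13.2% of all probe sets did not overlap. In the KO 2 members did not overlap (Ncam1 and Cntn2, both lower on the closed side) against 17.3%. The WT and KO side comparisons rest on different arrays and share only the estimate of the spread. The mean of both genotypes reuses the arrays of both and is not separate evidence.

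**Figure D1:**
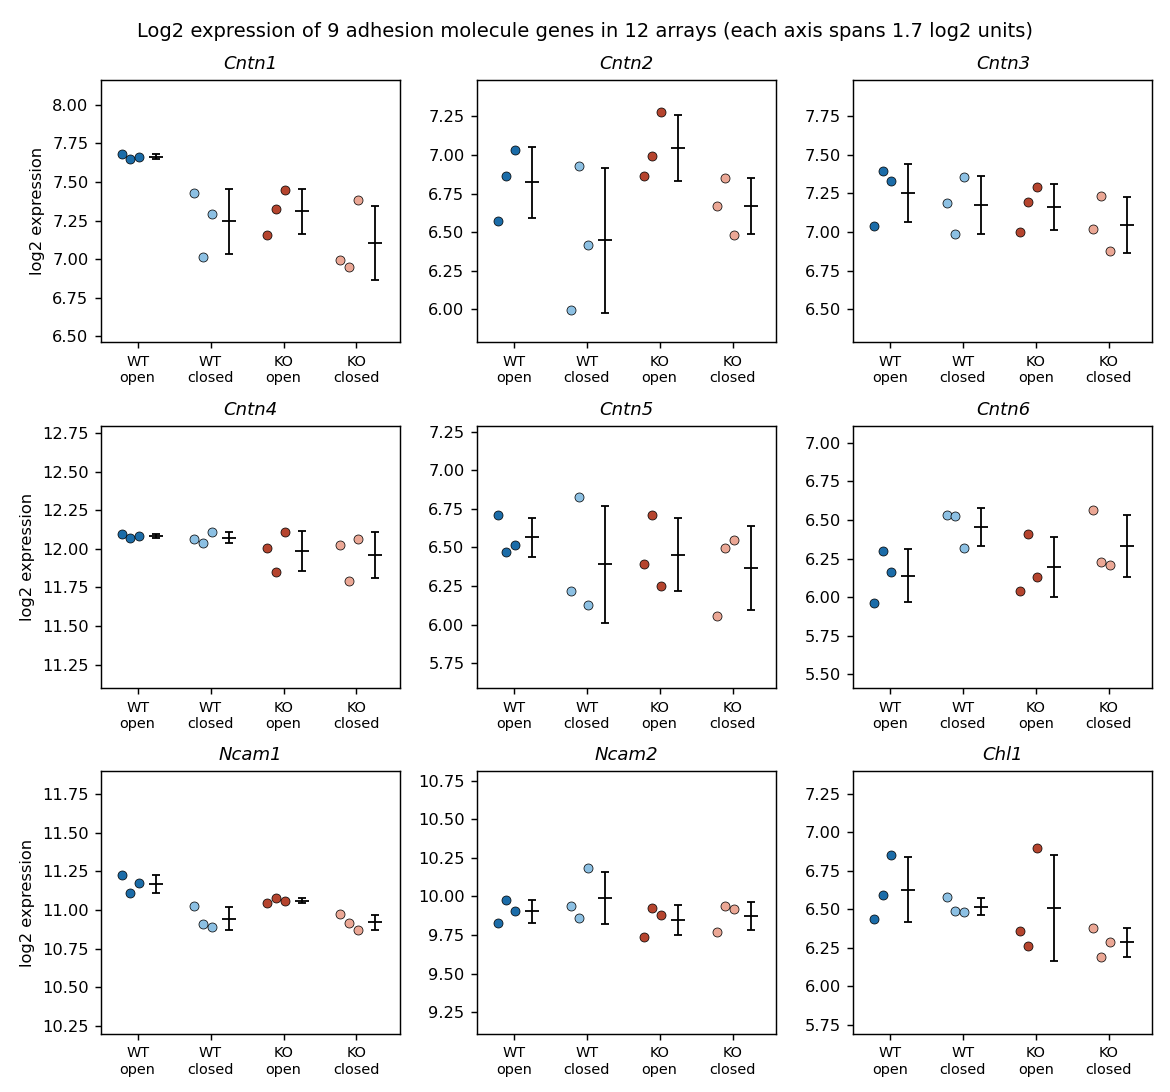
Log2 expression of each of the 9 genes (vertical axis, log2 units, every panel spanning 1.7 units) in the 12 arrays, by genotype and side of the MOE (horizontal axis). Dots stand for arrays and bars for the mean ± SD of 3 arrays. The 6 closed-side arrays of Ncam1 all lie under its 6 open-side arrays, while the sides overlap for Cntn3, Cntn4, Cntn5, Ncam2 and Chl1 in both genotypes.

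Ncam1, which is found on axons of olfactory neurons in general, gave the steadiest difference between sides (probe set 10593293). WT open samples had log2 levels of 11.23, 11.11 and 11.18, and WT closed samples of 11.03, 10.91 and 10.89. KO open samples had 11.04, 11.08 and 11.06, and KO closed samples 10.97, 10.91 and 10.87. All 6 closed arrays lay below all 6 open arrays, which was true of no other member and held in either direction for 3.71% of all probe sets. The change was -0.23 in the WT (SE 0.08, 95% interval -0.40 to -0.06, adjusted p = 0.326, limma) and -0.14 in the KO (95% interval -0.31 to 0.03, adjusted p = 0.606, limma). Averaged over genotypes it was -0.18, which is a level 12.0% lower (95% interval -0.31 to -0.06, adjusted p = 0.131, limma), and it was not called. With a variance prior that follows the mean level and is robust to outlying genes, the same change had an adjusted p of 0.0175, so the call depended on how the spread was modelled.

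Ncam2, the second NCAM, which is known to mark neurons of the ventrolateral zones of the epithelium, showed no such step (probe set 10436636). The WT open samples read 9.83, 9.98 and 9.90, and the WT closed samples 9.94, 9.86 and 10.18. KO open samples read 9.74, 9.93 and 9.88, and KO closed samples 9.77, 9.94 and 9.92. The sides overlapped in both genotypes, with a change of 0.09 in the WT (95% interval -0.14 to 0.32) and 0.03 in the KO (95% interval -0.20 to 0.25). Markers of the zones were read beside this gene. Of 4 such markers 0 were called on either side comparison or on the mean, and their summed log2 level lay at 12.60 to 12.79 and 12.63 to 12.73 on the WT open and closed sides and at 12.63 to 12.70 and 12.66 to 12.70 in the KO. That sum mixes markers of opposite zones. Nqo1, of the dorsal zone, lay between 10.11 and 10.51 over the 12 arrays, and Acsm4, also dorsal, between 11.56 and 11.84. Nrp2, a ventral marker, had higher means on the closed side, by 0.17 in the WT (9.74 to 9.88 against 9.85 to 10.02) and by 0.20 in the KO (9.77 to 9.81 against 9.91 to 10.09, without overlap). Robo2, a dorsal marker, had lower ones, by -0.15 and -0.12. It lay at 10.01 to 10.11 against 9.83 to 9.99 in the WT, without overlap. In the KO it lay at 10.06 to 10.22 against 9.93 to 10.09. Neither passed (adjusted p = 0.603 and 0.433 for Nrp2, 0.683 and 0.733 for Robo2, limma), and the part of zones in the values of Ncam2 was not tested.

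Chl1, an L1 family protein of growing axons, was measured below the median of the array (probe set 10540298). It read 6.44, 6.59 and 6.85 on the WT open side and 6.58, 6.49 and 6.48 on the WT closed side. In the KO it read 6.36, 6.26 and 6.90 on the open side, where the last sample lay well apart, and 6.38, 6.19 and 6.29 on the closed side. The changes were -0.11 in the WT and -0.22 in the KO (adjusted p = 0.931 and 0.715, limma), with the sides overlapping in each. Without the third WT open sample the WT change was 0.0027, and without the third KO open sample the KO change was -0.027. On the closed side all KO samples lay under all WT samples, by -0.23 (95% interval -0.58 to 0.11, adjusted p = 0.999, limma). No other member was without overlap between genotypes there, and 8.82% of all probe sets were.

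Among the contactins, Cntn1 had the lowest unadjusted p in the WT (probe set 10426397). Contactin-1 (F3) is a partner of contactin-associated protein beside the nodes of myelinated axons and binds several receptors on neurites. WT open samples, at log2 levels of 7.68, 7.65 and 7.66, lay closely together, and WT closed samples were at 7.43, 7.02 and 7.29. KO open samples were at 7.15, 7.32 and 7.45, and KO closed samples at 6.99, 6.95 and 7.38. The 3 WT open samples were above the other 9 arrays, and the KO sides overlapped. Without the third KO closed sample the KO change was -0.34, and without the second it was -0.12. The change was -0.42 in the WT (SE 0.14, 95% interval -0.72 to -0.11, adjusted p = 0.296, limma) and -0.20 in the KO (95% interval -0.50 to 0.10, adjusted p = 0.702, limma). On the open side the KO was lower than the WT by -0.35 (95% interval -0.66 to -0.05, adjusted p = 0.702, limma). Ncam1 was the other member whose KO open samples all lay below its WT open samples, 2 of 9 against 12.4% of all probe sets. All 3 of these values for Cntn1 draw on the same WT open arrays or the same KO open arrays. The effect of UNO differed between genotypes by 0.21 (95% interval -0.21 to 0.64), which did not pass.

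Cntn2 encodes TAG-1, a contactin of outgrowing axons that is also found beside nodes of myelinated fibres (probe set 10357705). It varied most between samples of one group. WT open samples read 6.57, 6.86 and 7.03, and WT closed samples 5.99, 6.93 and 6.41, so that the second closed sample lay among the open ones. KO open samples read 6.86, 6.996 and 7.28, and KO closed samples 6.67, 6.85 and 6.48, without overlap but nearly touching. The change was -0.38 in both genotypes, with 95% intervals of -0.84 to 0.09 in the WT and -0.85 to 0.09 in the KO (adjusted p = 0.674 and 0.609, limma). The WT value rested on single arrays, being -0.15 without the first WT closed sample and -0.62 without the second. On the mean it was -0.38 (95% interval -0.71 to -0.05, adjusted p = 0.290, limma).

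Cntn4 encodes contactin-4, the contactin best known from OSN axons and glomeruli, and its probe set gave a strong signal (probe set 10540359). It read 12.10, 12.07 and 12.09 on the WT open side and 12.06, 12.04 and 12.11 on the WT closed side. KO open samples read 12.01, 11.85 and 12.11, and KO closed samples 12.03, 11.79 and 12.07. The second KO sample of each side was the lowest of its group, and the sides overlapped in both genotypes. The change was -0.01 in the WT (95% interval -0.23 to 0.20) and -0.03 in the KO (95% interval -0.24 to 0.19), so fold changes below 0.846 or above 1.15 lay outside both intervals.

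Cntn6 (NB-3), a contactin that can bind NOTCH1 and CHL1, was the one contactin higher on the closed side (probe set 10540333). It read 5.96, 6.30 and 6.16 in WT open samples and 6.53, 6.52 and 6.32 in WT closed samples. KO open samples read 6.04, 6.41 and 6.13, and KO closed samples 6.56, 6.23 and 6.21. The WT sides came within a narrow margin of each other without overlap, and the KO sides overlapped. The change was 0.32 in the WT (95% interval 0.02 to 0.62, adjusted p = 0.502, limma) and 0.14 in the KO (95% interval -0.16 to 0.44, adjusted p = 0.824, limma). The KO change was 0.023 without the first KO closed sample and 0.25 without the second KO open sample.

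Cntn3 (BIG-1) and Cntn5 (NB-2), contactins of subsets of brain neurons, overlapped between sides in both genotypes. Cntn3 (probe set 10546736) read 7.04, 7.40 and 7.33 in WT open, 7.19, 6.99 and 7.36 in WT closed, 7.002, 7.20 and 7.29 in KO open and 7.02, 7.24 and 6.88 in KO closed samples. Its change was -0.08 in the WT and -0.12 in the KO (95% intervals -0.38 to 0.23 and -0.42 to 0.18). Cntn5 (probe set 10590865) read 6.71, 6.47 and 6.52 in WT open, 6.22, 6.82 and 6.12 in WT closed, 6.39, 6.71 and 6.25 in KO open and 6.05, 6.49 and 6.55 in KO closed samples. Its change was -0.18 in the WT and -0.09 in the KO (95% intervals -0.61 to 0.25 and -0.51 to 0.34).

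**Figure D2:**
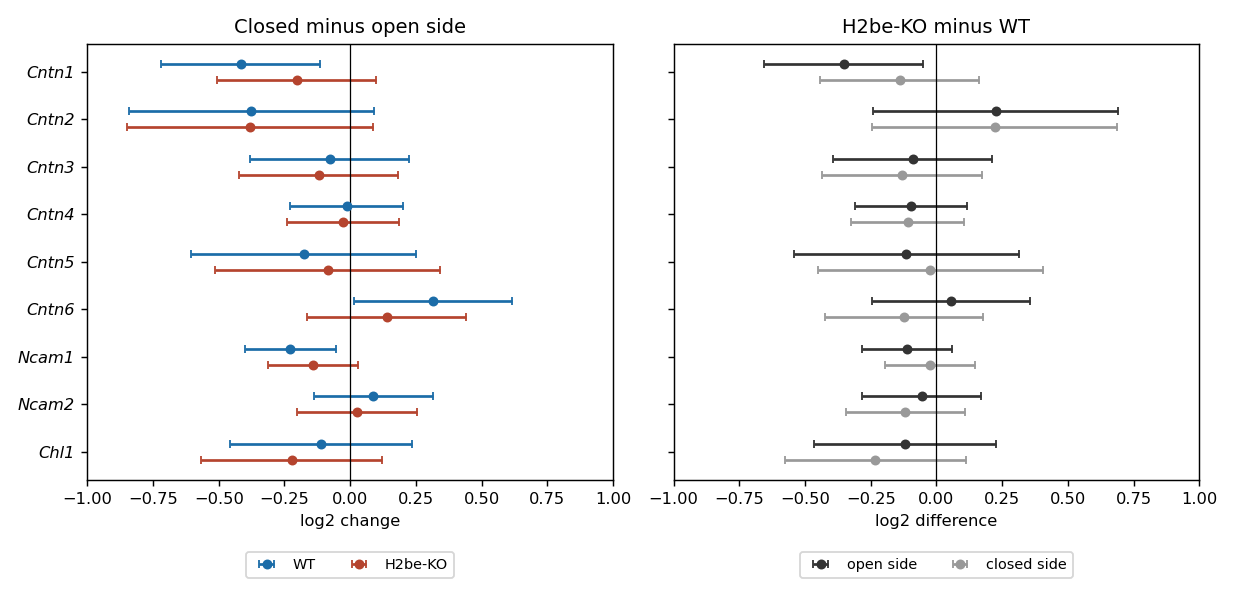
Log2 differences (horizontal axes) for the 9 genes (vertical axis), closed minus open side in WT and H2be-KO mice on the left and KO minus WT on the open and closed sides on the right. Points are differences of means of 3 arrays and bars are 95% intervals from limma, not adjusted for the number of probe sets. Side intervals of Cntn1, Cntn6 and Ncam1 leave out 0 in the WT, none do in the KO, and only that of Cntn1 on the open side does between genotypes.

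Over the 9 members, 7 were lower on the closed side in each genotype, and these were the same 7, with Cntn6 and Ncam2 higher. The median change was -0.11 in the WT and -0.12 in the KO, against medians over all probe sets of -0.01 and 0.02, and 53.2% and 45.1% of all probe sets were lower. The 95% intervals of the members reached from 0.17 (Ncam1) to 0.47 (Cntn2) on each side of the change in either genotype, and no interval of a side change reached a 1.80-fold change. Between genotypes 7 of 9 were lower in the KO on the open side and 8 of 9 on the closed side, with medians of -0.10 and -0.12 against -0.04 and 0.00 over all probe sets, of which 60.3% and 50.5% were lower. The difference between genotypes in the effect of UNO ran from -0.18 (Cntn6) to 0.21 (Cntn1), with an adjusted p of 1.00 for all 9 (limma), and its intervals were as wide as ±0.24 (Ncam1) to ±0.66 (Cntn2).
Mean log2 signals ran from 6.28 (Cntn6) to 12.03 (Cntn4), and 5 members (Cntn2, Cntn3, Cntn5, Cntn6 and Chl1) were below the lowest array median. Probe sets differ in how brightly they report a transcript, so these values do not rank the genes by abundance.

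The proteins with which contactins work were followed as a second list, 14 genes, all of them measured and tested. In each genotype 1 was called lower and 0 higher, and this was Cntnap4, which encodes contactin-associated protein 4, a neurexin family protein of nerve cell contacts. WT open samples had log2 levels of 7.18, 7.19 and 7.50, against 6.25, 6.38 and 6.35 in WT closed samples. KO open samples had 7.31, 7.26 and 7.31, against 6.38, 6.50 and 6.54 in KO closed samples. All closed samples were below all open samples by a wide gap. The closed samples lay below the lowest array median of 7.21, as did the WT open samples at 7.18 and 7.19. The change was -0.97 in WT and -0.82 in KO mice (SE 0.10 for both, adjusted p = 0.000915 and 0.00234, limma), and the 2 changes differed by 0.14 (SE 0.14, adjusted p = 1.00, limma). Of 20 alternatives, 1 ended the WT call, the fit to the 6 WT arrays alone (adjusted p = 0.0534, limma), and 0 ended the KO call. The other 13, which include amyloid precursor proteins, tenascin-R and receptor phosphatases, were not called. The list's median change was -0.05 in the WT and 0.02 in the KO.

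Enzymes, ligands and anchors of NCAM and CHL1 formed a list of 17 genes, all tested, with 1 called higher and 0 lower in each genotype. This was Bace1, the beta-secretase that cuts CHL1 and other adhesion proteins off the cell surface. It read 9.57, 9.54 and 9.45 in the WT open and 9.94, 9.96 and 9.96 in the WT closed samples, and 9.57, 9.56 and 9.64 and 10.07, 9.99 and 9.92 in the KO. All closed samples were above all open ones. The change was 0.43 in WT and 0.40 in KO mice (SE 0.08 for both, adjusted p = 0.0267 and 0.0336, limma). These calls were near the threshold and were lost under 10 and 13 of 21 alternatives, whereas on the mean of both genotypes (0.42, adjusted p = 0.00145, limma) the call was kept under 20 of 20. Polysialyltransferases St8sia2 and St8sia4, which modify NCAM1, and the GDNF co-receptor Gfra1 belonged to the list and were not called. The list's median change was -0.04 in both genotypes.

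Of 27 further immunoglobulin adhesion molecules, among them the L1, nectin, Cadm, DSCAM and IgLON families, 26 were measured, with 0 called in the WT and 1 higher in the KO. This was Dscam, a molecule of self-avoidance between neurites. It read 8.84, 8.90 and 9.03 in the WT open and 9.28, 9.30 and 9.23 in the WT closed samples, and 8.81, 8.89 and 8.88 and 9.33, 9.32 and 9.18 in the KO. The groups did not overlap in either genotype. The change was 0.34 in WT and 0.42 in KO mice (SE 0.08 for both, adjusted p = 0.115 and 0.0393, limma), and the KO call was lost under 15 of 21 alternatives. On the mean it was 0.38 (adjusted p = 0.00437, limma), called under 20 of 20.
On the mean of both genotypes 4 of the 26 were called, 2 in each direction, and the 3 beside Dscam are named here after their values were seen. Lsamp, an IgLON protein of limbic circuits, was 0.73 higher on the closed side (SE 0.12, adjusted p = 0.00473, limma). In neither genotype alone did it pass (adjusted p = 0.101 in the WT and 0.0526 in the KO, limma). Its group means ran from 6.03 to 6.80, below the lowest array median of 7.21. Dscaml1, the paralogue of Dscam, was lower by -0.38 (SE 0.09, adjusted p = 0.0452, limma), and Igsf9, the mammalian relative of the fly protein turtle, by -0.29 (SE 0.07, adjusted p = 0.0428, limma). Within the genotypes neither passed. Dscaml1 changed by -0.57 in the WT and -0.19 in the KO (adjusted p = 0.0724 and 0.682, limma), and Igsf9 by -0.43 and -0.14 (adjusted p = 0.0669 and 0.686, limma). The changes differed between genotypes by 0.38 for Dscaml1 and 0.29 for Igsf9 (adjusted p = 1.00 for each, limma). The calls of Dscaml1 and Igsf9 on the mean were each lost under 13 of 20 alternatives, and that of Lsamp under 0 of 19. The list's median change was -0.11 in the WT and -0.03 in the KO.

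**Figure D3:**
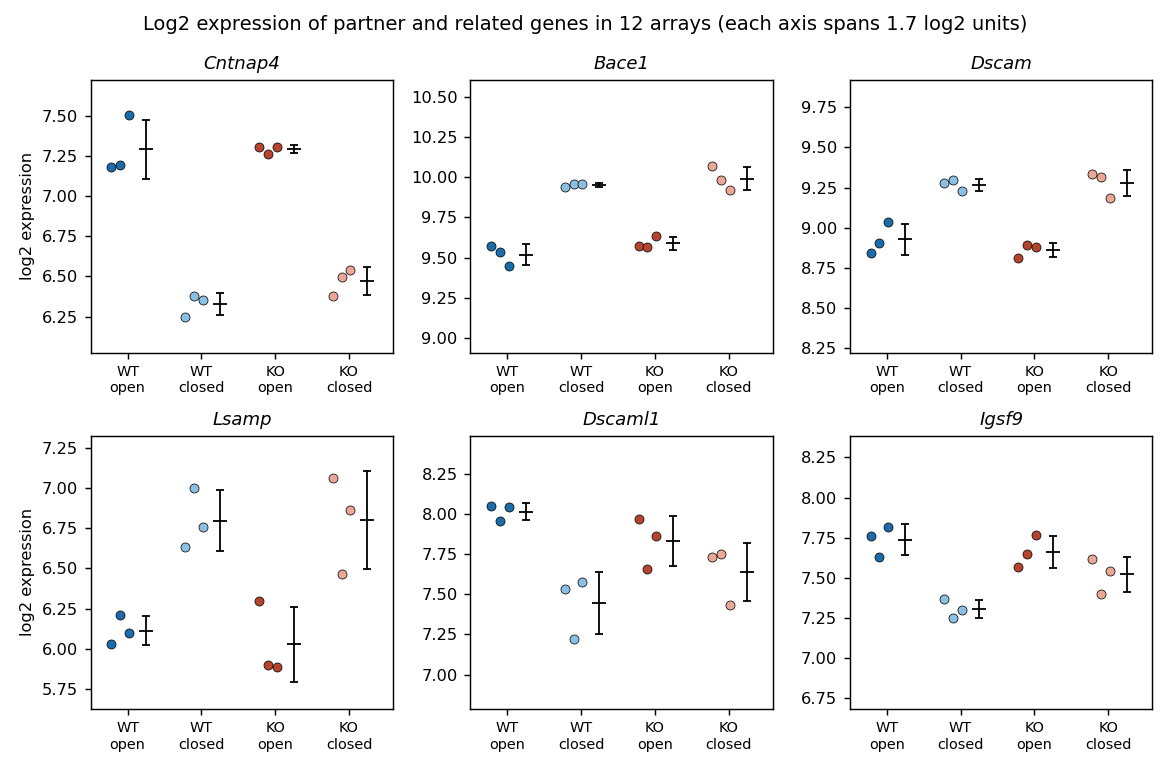
Log2 expression (vertical axis, log2 units, every panel spanning 1.7 units) of 6 partner and related adhesion genes in the 12 arrays, by genotype and side of the MOE (horizontal axis), with points for arrays and bars for the mean ± SD of 3 arrays. Cntnap4 drops from 7.18 to 7.50 on the open side of the WT to 6.25 to 6.38 on the closed side, Bace1 and Dscam are higher in all closed-side arrays, and the sides overlap in the KO for Dscaml1 and Igsf9.

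A sample of MOE holds cells of many types, and fewer cells of a type cannot be told apart from less RNA per cell. Markers of immature OSNs were lower on the closed side, where Ncam1 and Cntn1 also had lower means without passing, and whether they moved together was not tested. Of 16 such markers, 14 were lower on the closed side in each genotype, with a median change of -0.28 in the WT and -0.25 in the KO, and 9 were called lower on the mean of both genotypes. Their summed log2 level lay at 14.16 to 14.17 on the WT open side and 13.90 to 13.98 on the closed side, and at 14.13 to 14.19 and 13.91 to 13.98 in the KO. Gap43, a growth protein of extending axons whose first codons are also part of the KO allele, lay at 10.91 to 10.96 and 10.61 to 10.73 in the WT and at 10.87 to 11.00 and 10.62 to 10.75 in the KO. Gng8, a G protein subunit of young OSNs, was called lower in the WT (-0.54, adjusted p = 0.0130, limma). Nhlh2, a transcription factor of newly formed neurons, was called lower in the KO (-0.47, adjusted p = 0.0387, limma).
Of 16 mature OSN markers measured, 10 were higher and 6 lower in the WT, and 12 were higher and 4 lower in the KO. On the mean of both genotypes 8 were called higher and 1 lower, which was Slc17a6, the vesicular glutamate transporter VGLUT2 (-0.36, adjusted p = 0.00389, limma). Their summed log2 level lay at 15.36 to 15.39 on the WT open side and at 15.46 to 15.55 on the closed side. In the KO it lay at 15.34 to 15.42 and at 15.53 to 15.54. Cnga2, a subunit of the olfactory transduction channel, lay at 11.61 to 11.64 and 11.81 to 11.95 in the WT, while Omp, the general marker of mature OSNs, lay at 12.56 to 12.67 and 12.53 to 12.65. Channel subunit Cnga4 was called higher in WT (0.37) and KO mice (0.42; adjusted p = 0.0487 and 0.0250, limma), and Ano2 (0.38) and Cngb1 (0.43) were called in the KO. Of 11 progenitor and basal cell markers measured, 1 (Neurod1, -0.27) was called lower on the mean. Neurog1, a factor of neuronal precursors, lay at 7.25 to 7.46 and 7.02 to 7.31 on the WT sides and at 7.04 to 7.45 and 6.92 to 7.39 in the KO.

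Olfactory ensheathing glia wrap OSN axons and express adhesion molecules of their own. Of 9 glial markers measured, 0 were called, and their summed log2 level lay at 12.15 to 12.29 and 12.03 to 12.18 on the WT sides and at 12.07 to 12.19 and 12.10 to 12.14 in the KO. Of the 9, 6 were lower on the closed side in the WT and 5 in the KO. The defining glial factor Sox10 lay at 7.28 to 7.39 and 7.31 to 7.78 in the WT and at 7.26 to 7.46 and 7.25 to 7.70 in the KO, with changes of 0.17 and 0.14. Fabp7, a lipid carrier of these glia, gave -0.26 and -0.18, Npy -0.41 and -0.44 and Frzb, a Wnt antagonist, -0.21 and -0.28 (adjusted p from 0.267 to 0.765, limma). These were the glial markers lowered most in both genotypes and were picked after their values were seen. The list's median change was -0.05 in the WT and -0.08 in the KO. On the mean of both genotypes Npy changed by -0.43 (adjusted p = 0.0532, limma). Supporting and gland cells (11 markers measured), ciliated respiratory cells (7), vessels and mesenchyme (8), bone and cartilage (5) and leukocytes (8 tested of 9 measured) also gave 0 calls in the side comparisons. Without a call, 6 of 7 ciliated cell markers were higher on the closed side in the WT and 5 in the KO (medians 0.23 and 0.15). Of vessel and mesenchyme markers 7 of 8 were higher in each genotype (medians 0.04 and 0.14), and of bone and cartilage markers 5 of 5 (0.09 and 0.21). Higher were also 3 of 11 supporting and gland markers in the WT and 5 in the KO, and 6 and 3 of 8 leukocyte markers. Cyp2g1, of supporting cells, lay at 12.39 to 12.45 and 12.35 to 12.44 on the WT sides and at 12.50 to 12.52 and 12.41 to 12.50 in the KO. Foxj1, of ciliated cells, lay at 8.97 to 9.14 and 9.29 to 9.34 in the WT and at 9.10 to 9.28 and 9.30 to 9.42 in the KO, so that the sides did not overlap in either genotype (changes of 0.28 and 0.16, adjusted p = 0.235 and 0.557, limma). Dnah5, of the same cells, lay at 8.69 to 9.05 and 8.97 to 9.499 in the WT and at 8.53 to 9.02 and 8.86 to 9.20 in the KO. The vessel markers Pecam1 (7.20 to 7.42 and 6.88 to 7.77 in the WT, 7.29 to 7.58 and 7.43 to 7.75 in the KO) and Cdh5 (7.02 to 7.20 and 7.06 to 7.23, 6.79 to 6.97 and 7.12 to 7.40) overlapped between sides except for Cdh5 in the KO (0.44, adjusted p = 0.0860, limma). The leukocyte marker Ptprc lay at 8.07 to 8.20 and 8.39 to 8.53 in the WT and at 8.03 to 8.58 and 8.09 to 8.33 in the KO, and Cd68 at 8.58 to 8.68 and 8.498 to 8.60 and at 8.29 to 8.90 and 8.396 to 8.80. Ptprc did not overlap between the WT sides (0.31, adjusted p = 0.480, limma). The part of any of these cell types in the values of Ncam1, Cntn1 and the partner genes was not tested.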

How the data were processed

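RNA of the open or closed side of the MOE, 12 samples in all, was read on Mouse Gene 1.0 ST arrays (Affymetrix). The authors processed the arrays in Affymetrix Expression Console (IterPLIER summaries after sketch-quantile normalization), and the deposited values are log2 expression per probe set and array. Such normalization gives arrays a common distribution and would hide a change shared by most genes. Gene symbols came from the platform annotation and were updated to the RefSeq symbol where the Entrez ID was found in RefSeq.

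With R 4.3.3 and limma 3.58.1, the 2941 of 35556 probe sets whose mean log2 value did not exceed 5 were left out, and group means were fitted (lmFit, eBayes). Tests were two-sided, with Benjamini-Hochberg adjustment over all 32615 probe sets and a threshold of 0.05, and 3 arrays per group limit the precision. The fit was tested on simulated data. Samples were grouped by their labels, and nothing states whether samples share mice, litters or a day of processing. The members and all lists were chosen with earlier results of these data known. All members were described, and of the other lists up to 4 genes called in a side comparison of either genotype, with the first 2 genes of each marker list where the platform annotation named them. Slc17a6, Nrp2, Robo2, Fabp7, Npy, Frzb, Neurod1, Lsamp, Dscaml1 and Igsf9 were added after their values were seen. Promoter windows came from RefSeq (GRCm38.p6). Other filters, fits and normalizations, a replicate block and the omission of each array were tried. Plots used matplotlib 3.10.9 under Python 3.11.15.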

Additional observations from a re-analysis of the deposited data

How the results depend on the processing

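No member was called in any of the 6 comparisons under any alternative except 1, in which Ncam1 passed on the mean of both genotypes with a trended, robust variance prior (1 member called, adjusted p = 0.0175). Of 1092 recomputed member values, 1050 kept their direction and their side of the threshold, 41 turned sign and 1 gained a call. Filters, variance priors, the block and the omission of arrays outside the groups compared cannot change a difference of group means. Many of the 1050 could therefore only keep their direction, and the count does not measure how stable the directions are. Turned values among side changes were small. For Cntn4 the WT change was 0.020 after quantile normalization and 0.0028 after median centring, and its mean change was 0.00041 after quantile normalization. The KO change of Ncam2 was -0.00025 after median centring. Without 1 array at a time the WT change of Chl1 ran from -0.21 to 0.0027, of Cntn3 from -0.19 to 0.017, of Cntn4 from -0.033 to 0.0023 and of Ncam2 from -0.0068 to 0.15. The KO change ran from -0.097 to 0.058 for Cntn4, from -0.19 to 0.070 for Cntn5 and from -0.028 to 0.079 for Ncam2, and the mean change of Cntn4 from -0.055 to 0.022. Changes of Ncam1, Cntn1, Cntn2 and Cntn6 between sides kept their direction under every alternative run, but not their size. Over all alternatives Ncam1 ran from -0.27 to -0.19 in the WT and from -0.17 to -0.12 in the KO, Cntn1 from -0.51 to -0.30 and from -0.34 to -0.11, Cntn2 from -0.62 to -0.15 and from -0.47 to -0.26, and Cntn6 from 0.23 to 0.40 and from 0.023 to 0.25. The WT change of Cntn5 ran from -0.39 to -0.045, and the KO changes of Cntn3 and Chl1 from -0.22 to -0.037 and from -0.34 to -0.027. A filter at a mean log2 value of 7 left 5 members, and averaging all probe sets of a gene changed nothing since each member has 1.

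With the replicate number as a block, 0 members were called in any comparison. In the WT, deviations of same-numbered open and closed samples from their group means correlated with r of -0.01, 0.17 and 0.02. In the KO r was 0.05, 0.23 and 0.03. Samples of unlike numbers gave r from -0.19 to 0.13, and not every sample correlated best with its own number. Correlations this weak, of deviations from means of 3 samples, cannot decide whether the numbers pair the samples. Under the block 97 of all probe sets were called in the WT against 279 without it, and the calls of Bace1 in both genotypes (adjusted p = 0.117 and 0.133) and of Dscam in the KO (adjusted p = 0.148) were lost, while those of Cntnap4 were kept; its WT call was lost in the fit to the WT arrays alone (adjusted p = 0.0534). Alternatives for genes outside the members were chosen after seeing the data. Cntn2, Cntn3, Cntn5, Cntn6 and Chl1 had mean levels below the array median.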
